A study of Mus musculus with 2 samples.

Results

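Adipocytes in a wounded skin were read here through 35 genes of fat storage. In the PU.1-/- wound 8 of them were at least 2-fold lower, beside 4.34% of all listed genes. None was higher by as much, beside 2.32% of all listed genes. Of the 8, Lep, Aqp7 and Adrb3 were under 1 FPKM in both libraries and rest on few reads. The 35 genes encode secreted proteins of fat cells, proteins of the lipid droplet, enzymes that take up, make, store and release fatty acids, and the marker of brown fat. They were picked by symbol from the 24346 gene symbols of the deposited values, and all 35 were found in both libraries. The data are bulk mRNA sequencing of dorsal skin wounds of 1-day-old C57BL/6J littermates, WT or PU.1 KO (written PU.1-/-), taken 24 h after injury, with 1 library per genotype. The methods describe full-thickness incisions, while the design text calls the wounds excisional, and how many pups a library holds was not stated. PU.1, the product of Spi1, directs the making of myeloid and lymphoid blood cells. By the study's own description the PU.1-/- pups have no macrophages, neutrophils, mast cells or T cells.

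The values are FPKM, the fragments of a gene divided by the length of its transcript and by the size of the library, so that levels can be set side by side between genes. With 1 library per genotype there is no measure of the spread between animals, and no p-value can be given. Differences are log2 ratios of FPKM, PU.1-/- over WT, with values below 0.1 FPKM raised to 0.1. Where no other fold is given, a gene called lower or higher differed by 2-fold or more. The intervals after the log2 ratios are exact binomial (Clopper-Pearson) intervals at 95% on estimated read numbers, and they cover counting error only. The PU.1-/- library was estimated to be 1.15 times as deep as the WT library. Spi1 itself was at 35.4 FPKM in the WT and 1.45 FPKM in the PU.1-/- library. Skin was recognizable in both, with the basal keratin Krt14 at 4659 and 5195 FPKM and the dermal proteoglycan Dcn at 690 and 959 FPKM. The Y-linked gene Ddx3y (21.0 FPKM) was found in WT and is listed at 0 in PU.1-/-, and Xist, at 0 in WT, was at 9.48 FPKM in PU.1-/-. Genotype and the sex of the pups therefore cannot be told apart in any value given here.

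A white adipocyte stores triglyceride in 1 large droplet coated by perilipins. Fatty acids reach it from the blood, where lipoprotein lipase frees them, or are made in the cell from glucose by the enzymes that SREBP-1c controls. They are joined to a glycerol backbone for storage and freed again by lipases when adrenergic signals arrive. PPARγ, encoded by Pparg, is the transcription factor that makes a cell an adipocyte, and mature adipocytes release adipokines such as adiponectin, leptin and, in the mouse, resistin. Mouse dermis lies on a layer of such cells that forms around birth. Several of the 35 genes are also used outside fat, among them Fabp4 and Cd36 in endothelium and macrophages, Lpl and Slc2a4 in muscle, Car3 in muscle, and Scd1 and Cidea in sebaceous glands.

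The genes whose levels differed most are introduced by the DNA in front of them. The 250 bases before the annotated start site are given from RefSeq on GRCm38.p6, the assembly called mm10, written 5′ to 3′ on the strand of the gene. Of the 35 genes, 25 had an entry, with 34 start sites. A start site used is not always the outer end of the gene. The window of Fasn lies inside the listed bounds of the gene (120805958 to 120825166). That of Plin1 lies partly inside its gene, whose bounds end at 79732904. The first 5 sequences belong to genes counted as lower, and those of Adipoq and Fasn, which were within 2-fold, are shown beside them. Capitals mark any match, on either strand, to AGGTCA, to 2 copies of AGGTCA with 1 base between them (DR1, the PPARγ element), to TCACNCCAC (a sterol regulatory element), to CACGTG (an E box), to CCAAT, to TATAAA, to TTGCNNAA (a C/EBP-like site) or to GAGGAA (the PU box).
Cfd, chr10:79890603-79890852, plus strand: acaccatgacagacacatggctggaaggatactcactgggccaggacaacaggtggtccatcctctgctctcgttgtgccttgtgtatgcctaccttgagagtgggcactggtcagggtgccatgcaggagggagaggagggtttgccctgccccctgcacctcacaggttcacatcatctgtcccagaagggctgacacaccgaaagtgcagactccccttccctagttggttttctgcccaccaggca
Retn, chr8:3655520-3655769, plus strand: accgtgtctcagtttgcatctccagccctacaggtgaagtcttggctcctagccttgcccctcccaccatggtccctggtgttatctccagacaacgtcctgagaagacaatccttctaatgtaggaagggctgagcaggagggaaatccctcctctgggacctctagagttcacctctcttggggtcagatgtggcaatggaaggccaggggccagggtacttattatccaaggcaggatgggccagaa
Lep, chr6:29059971-29060220, plus strand: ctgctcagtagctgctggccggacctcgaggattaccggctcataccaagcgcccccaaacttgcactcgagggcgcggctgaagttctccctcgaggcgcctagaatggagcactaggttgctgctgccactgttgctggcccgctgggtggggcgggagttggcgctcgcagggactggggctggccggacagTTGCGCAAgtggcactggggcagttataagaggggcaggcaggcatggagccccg
Plin1, chr7:79732777-79733026, minus strand: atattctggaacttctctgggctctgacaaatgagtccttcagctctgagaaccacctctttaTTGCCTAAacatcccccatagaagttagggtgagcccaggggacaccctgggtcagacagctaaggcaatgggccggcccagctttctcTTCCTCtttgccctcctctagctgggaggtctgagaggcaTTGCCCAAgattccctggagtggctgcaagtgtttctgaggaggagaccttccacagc
Pck1, chr2:173152823-173153072, plus strand: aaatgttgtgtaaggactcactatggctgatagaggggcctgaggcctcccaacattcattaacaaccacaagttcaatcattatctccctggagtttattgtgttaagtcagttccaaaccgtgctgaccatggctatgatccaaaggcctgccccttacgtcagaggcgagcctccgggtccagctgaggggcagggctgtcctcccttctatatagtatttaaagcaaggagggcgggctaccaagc
Adipoq, chr16:23146286-23146535, plus strand: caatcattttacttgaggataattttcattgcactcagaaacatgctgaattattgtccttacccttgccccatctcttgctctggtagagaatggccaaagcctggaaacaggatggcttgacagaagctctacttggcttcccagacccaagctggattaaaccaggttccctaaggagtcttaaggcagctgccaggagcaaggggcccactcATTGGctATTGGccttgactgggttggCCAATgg
Fasn, chr11:120824548-120824797, minus strand: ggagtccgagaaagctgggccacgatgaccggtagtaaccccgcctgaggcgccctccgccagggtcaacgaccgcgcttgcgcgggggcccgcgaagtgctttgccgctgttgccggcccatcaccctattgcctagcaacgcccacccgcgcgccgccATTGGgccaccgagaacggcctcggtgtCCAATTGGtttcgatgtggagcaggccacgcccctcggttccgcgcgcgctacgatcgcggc
Cfd, Retn and Pck1 held none of these letters in the 250 bases. In Lep the C/EBP-like match began 55 bases before the start, in Plin1 there were C/EBP-like matches at 187 and 58 bases and a PU box at 98 bases before the start, and in Adipoq and Fasn the capitals are CCAAT. Over the whole window of 250 bases before to 50 after a start, CCAAT was found in 0 of the 7 start sites of lower genes and in 12 of the 27 start sites of the other genes, against 37.4% of all 32851 promoters in the table. The C/EBP-like letters occurred in 2 of the 7 and 2 of the 27, against 10.8% of all promoters, and the PU box in 2 and 5, against 28.3%. AGGTCA occurred in 2 and 8 start sites, against 16.3% of all promoters, and DR1 in 0 of the 34, against 0.0396%. The E box was found in 0 of the 7 and 3 of the 27 (7.15% of all), TCACNCCAC in 0 and 1 (1.24% of all), and TATAAA in 0 and 1 (13.6% of all). A match is a string of letters and not a measured binding site, and several start sites belong to 1 gene.

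By the 2-fold rule 8 of the 35 genes (22.9%) were lower in the PU.1-/- wound, where 4.34% of all 24346 listed genes were lower. None of the 35 was higher, where 2.32% of all genes were. At 1.5-fold, 14 of the 35 were lower and none higher, beside 7.67% and 5.79% of all genes, and at 3-fold 5 were lower and none higher, beside 2.8% and 0.616%. From the largest difference to the smallest, the lower genes were Lep, Retn, Pck1, Adrb3, Cfd, Plin1, Aqp7 and Car3. Of the other 27 genes, 6 were between 1.5-fold and 2-fold lower and 21 were within 1.5-fold. The genes nearest the threshold were Car3, 2.21-fold lower, and Cidec, 1.94-fold lower. The median log2 ratio over the 35 genes was -0.34, beside -0.01 for the 16298 genes that reached 0.1 FPKM in either library. Of the 35 genes, 27 had a ratio below 0 and 8 a ratio above it. All 35 passed the 0.1 FPKM limit, and 31 reached 1 FPKM in 1 or both libraries. Of these 31, 5 (16.1%) were lower, beside 4.45% of all 13237 genes that reached 1 FPKM, and none was higher, beside 1.71%. At 10 FPKM or more, 5 of 27 were lower and none higher, beside 2.88% and 0.882% of 7256 genes. The counting interval lay wholly below 0 for 22 of the 30 genes with at least 100 estimated reads and wholly above 0 for 3, beside 23.8% and 25.4% of all 11993 such genes. For 5 of the 30 (Retn, Cfd, Pck1, Plin1 and Car3) the whole interval was past 2-fold lower, beside 2.5% of those genes. The interval of Plin1 ended at -1.02, so close that rescaling to the same FPKM sum, a shift of 0.05, would bring it inside 2-fold.

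**Figure D1:**
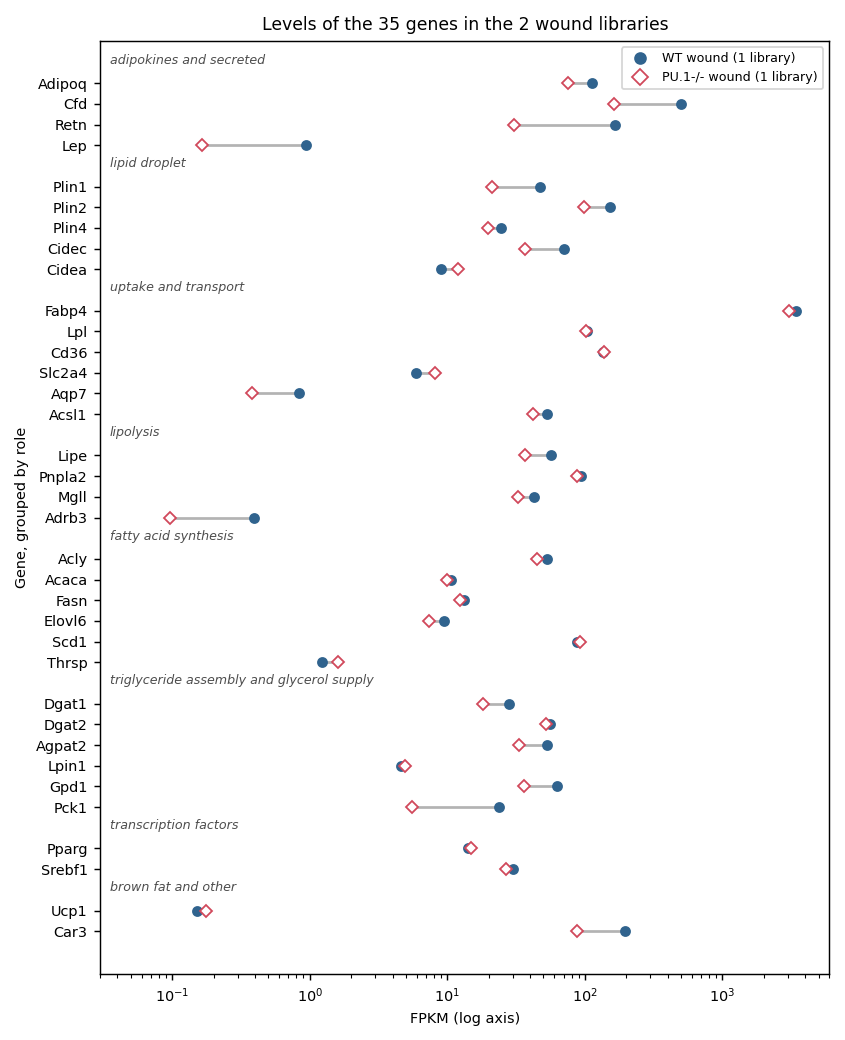
Level of each of the 35 genes in FPKM on a log axis, in the WT library (filled circles) and the PU.1-/- library (open diamonds), grouped by role, with a grey line joining the 2 values of a gene. The lines are long for Retn (166 and 30.3 FPKM) and Pck1 (23.9 and 5.58 FPKM) and short for Fabp4, Lpl and Cd36.

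The 4 secreted proteins had the lowest median log2 ratio of the 8 roles, -2.05, with roles chosen when earlier results of these data were known. Of the 4, 3 were lower, beside 4.34% of all listed genes. The same share stands beside the counts of the other roles. Retn encodes resistin, a hormone that in the mouse comes from adipocytes. Its levels were 166 FPKM in WT and 30.3 FPKM without PU.1, a log2 ratio of -2.46 (-2.61 to -2.31) from about 2151 and 450 reads. With its shortest RefSeq-linked transcript in place of the longest, a choice made after the data were seen, the reads were 1544 and 323 and the interval -2.63 to -2.28. Retn lies on chromosome 8 of mm10 from 3655770 to 3659818.
Cfd encodes adipsin, or complement factor D, the protease that starts the alternative complement pathway. It was the second most abundant of the 35 genes in the WT wound, at 504 FPKM, and was at 162 FPKM in the PU.1-/- wound, a log2 ratio of -1.64 (-1.72 to -1.56). Cfd lies on chromosome 10 from 79890853 to 79892655.
Lep, on chromosome 6 from 29060221 to 29073876, encodes leptin, the hormone that reports fat stores to the brain. It was near the limit of detection, with 0.945 and 0.165 FPKM, which stand for about 40 and 8 reads, and its log2 ratio of -2.52 had an interval of -3.83 to -1.41. Adipoq, the gene of adiponectin, a hormone made almost only by adipocytes, lay within 2-fold, at 112 FPKM in WT against 75.7 FPKM in PU.1-/-, a log2 ratio of -0.56 (-0.67 to -0.46). The intervals of Retn, Cfd and Lep each lay below that of Adipoq. Those of Retn and Lep overlapped, and that of Cfd lay above the interval of Retn. In bulk tissue, fewer adipocytes and less RNA per adipocyte cannot be told apart.

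Retn and Cfd each stand beside genes of leukocytes in the genome, which was looked up after their values were seen. Elane and Prtn3, the neutrophil granule proteases, lie within 50 kb of Cfd, at gaps of 2636 and 7678 bases. Elane was at 1.02 and 0.0887 FPKM and Prtn3 at 3.24 and 0.166 FPKM in the WT and PU.1-/- libraries, both counted as lower. On the other side of Cfd, Med16, a subunit of the Mediator complex, was at 12.7 and 13.2 FPKM. Mcemp1, a membrane protein of mast cells and myeloid cells, lies 5943 bases from Retn and was at 17.5 and 0.136 FPKM. The remaining listed genes within 50 kb of Cfd or Retn were within 2-fold. Of the paralogs of resistin 2 were lower, Retnlg at 215 FPKM in WT and listed at 0 in PU.1-/-, and Retnla at 12.7 and 1.31 FPKM, while Retnlb is listed at 0 in both. Whether reads of one gene were counted for another was not tested.

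**Figure D2:**
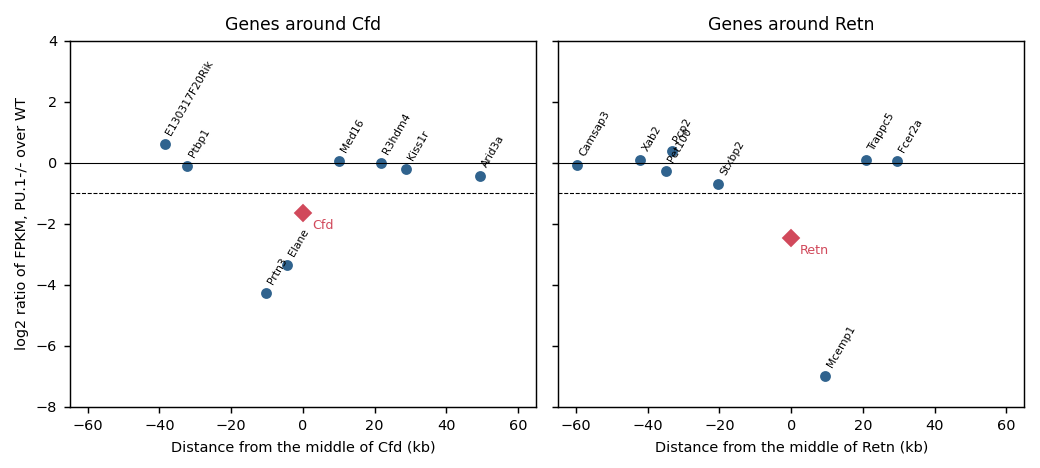
log2 ratio of FPKM, PU.1-/- over WT, of the genes within 50 kb of Cfd (left) and of Retn (right) that reached 0.1 FPKM, against the distance between gene middles in kb. The diamond is Cfd or Retn and the dashed line is 2-fold lower. Prtn3 and Elane beside Cfd, and Mcemp1 beside Retn, lie under the dashed line and the other neighbours lie over it.

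Of the lipid droplet genes 1 of 5 was lower, Plin1. Plin1 encodes perilipin 1, which coats the droplet and holds lipases off it. It was at 47.2 FPKM in WT against 21.1 FPKM in PU.1-/-, a log2 ratio of -1.16 (-1.31 to -1.02), and lies on chromosome 7 from 79721164 to 79732904. Cidec, whose protein fuses small droplets into large ones, was just short of the 2-fold threshold, at 71.1 and 36.6 FPKM and a log2 ratio of -0.96 (-1.08 to -0.84). Plin2, the perilipin that most cells with droplets use, was at 152 and 99.0 FPKM (-0.62, interval -0.69 to -0.54). Plin4, which coats small new droplets, was at 24.7 and 19.8 FPKM (-0.32, interval -0.41 to -0.22). Cidea, the relative of Cidec in brown fat and sebaceous glands, had a ratio above 0, at 9.01 and 11.9 FPKM and a log2 ratio of 0.40 (0.06 to 0.76). The interval of Plin1 lay below those of Plin2 and Plin4, and Cidec differed from Cidea in sign.

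Of the 6 uptake genes 1 was lower, Aqp7. Fabp4, the fatty acid carrier of adipocytes and endothelium, was the most abundant of the 35 genes, at 3408 FPKM in WT against 3037 FPKM in PU.1-/-, a log2 ratio of -0.17 (-0.19 to -0.14). Lpl, lipoprotein lipase, was at 103 and 101 FPKM (-0.03, interval -0.08 to 0.02), and Cd36, the fatty acid receptor, at 135 and 138 FPKM (0.03, interval -0.02 to 0.08). For Lpl and Cd36 the interval held 0 and was narrow, reaching from -0.08 to 0.02 and from -0.02 to 0.08. Acsl1, which activates fatty acids with coenzyme A, was at 53.1 and 41.8 FPKM (-0.34, interval -0.42 to -0.26). Slc2a4, the insulin-regulated glucose transporter of fat and muscle, was at 5.93 and 8.14 FPKM and had the highest log2 ratio of the 35, 0.46 (0.19 to 0.72). Aqp7, the glycerol channel of adipocytes, was counted as lower at 0.841 and 0.379 FPKM, about 27 and 14 reads, and its interval of -2.19 to -0.17 reached well inside 2-fold. Aqp7 lies on chromosome 4 from 41033074 to 41048237. Fabp4 made up most of the summed level of the 35 genes, which was 5630 FPKM in WT against 4390 FPKM in PU.1-/-, and without Fabp4 the sums were 2222 and 1353 FPKM.

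The 3 lipases that free stored fat were within 2-fold, and the receptor that calls on them was lower. Pnpla2 encodes ATGL, which takes the first fatty acid off a triglyceride, and was at 94.4 and 88.1 FPKM (-0.10, interval -0.17 to -0.03). Lipe encodes hormone-sensitive lipase, the next enzyme, and was at 56.7 and 36.6 FPKM (-0.63, interval -0.72 to -0.55). Mgll, monoglyceride lipase, which takes off the last fatty acid, was at 42.7 and 32.6 FPKM (-0.39, interval -0.48 to -0.30). With the longest transcripts the intervals of the 3 enzymes did not overlap, and Lipe had the lowest ratio. With the shortest RefSeq-linked transcripts, Mgll had about 490 and 430 reads. Its interval of -0.58 to -0.20 then overlapped that of Lipe, -0.73 to -0.53. Adrb3, the adrenergic receptor of adipocytes that starts lipolysis, was counted as lower at 0.390 and 0.0970 FPKM. These values stand for about 14 and 4 reads, so that its log2 ratio of -1.96 had an interval of -4.07 to -0.34. It lies on chromosome 8 from 27225776 to 27230845 and overlaps another gene, whose reads cannot be told from its own where counting ignored strand.

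None of the 6 fatty acid synthesis genes was counted as lower or higher. Acly, which makes cytosolic acetyl-CoA from citrate, was at 52.7 and 45.1 FPKM (-0.22, interval -0.30 to -0.15). Acaca, acetyl-CoA carboxylase, was at 10.6 and 9.90 FPKM (-0.10, interval -0.21 to 0.01), and Fasn, fatty acid synthase, at 13.3 and 12.3 FPKM (-0.11, interval -0.20 to -0.01). Elovl6, which lengthens palmitate, was at 9.54 and 7.36 FPKM (-0.38, interval -0.53 to -0.22).
Scd1, the desaturase that makes oleate and is abundant in sebaceous glands, was at 87.6 and 93.0 FPKM (0.09, interval 0.03 to 0.14). Thrsp, a regulator of lipogenesis, was low, at 1.22 and 1.60 FPKM or about 18 and 27 reads, and its interval of -0.53 to 1.33 held 0. The group median was -0.10 on the log2 scale, beside -2.05 for the 4 secreted proteins.

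Of the genes that build triglyceride, Pck1 stood apart. Pck1 encodes the cytosolic PEPCK, which in adipocytes makes glycerol 3-phosphate from pyruvate and in liver makes glucose. It was at 23.9 FPKM in WT against 5.58 FPKM in PU.1-/-, a log2 ratio of -2.10 (-2.32 to -1.88) from about 810 and 217 reads. Pck1 lies on chromosome 2 from 173153073 to 173159274.
Gpd1, which makes glycerol 3-phosphate from a glycolytic intermediate, was at 62.5 and 36.4 FPKM (-0.78, interval -0.87 to -0.69). Agpat2, the acyltransferase whose loss causes lipodystrophy, was at 52.8 and 33.0 FPKM (-0.68, interval -0.83 to -0.54). Lpin1, the phosphatidate phosphatase, was at 4.58 and 4.96 FPKM (0.12, interval -0.09 to 0.33). The enzymes of the last step, Dgat1 and Dgat2, had intervals that did not overlap. Dgat1 was at 28.1 and 18.2 FPKM (-0.62, interval -0.79 to -0.45), while Dgat2 was at 55.9 and 51.9 FPKM (-0.11, interval -0.21 to -0.01).

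The transcription factors above these genes were at like levels in both wounds. Pparg was at 14.0 FPKM in WT against 15.0 FPKM in PU.1-/- (0.09, interval -0.11 to 0.30). Srebf1, the gene of SREBP-1, was at 30.1 and 26.6 FPKM (-0.18, interval -0.27 to -0.08). Both lay well within 2-fold, and only for Pparg did the interval hold 0.
Ucp1, the uncoupling protein that defines brown fat, was at 0.151 and 0.175 FPKM, about 3 and 4 reads, with a log2 ratio of 0.22 and an interval of -2.35 to 2.99. Car3, carbonic anhydrase 3, is abundant in white fat and slow muscle. It was at 195 and 88.1 FPKM, a log2 ratio of -1.15 (-1.22 to -1.07), and lies on chromosome 3 from 14863538 to 14872381, where it too overlaps another gene.

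**Figure D3:**
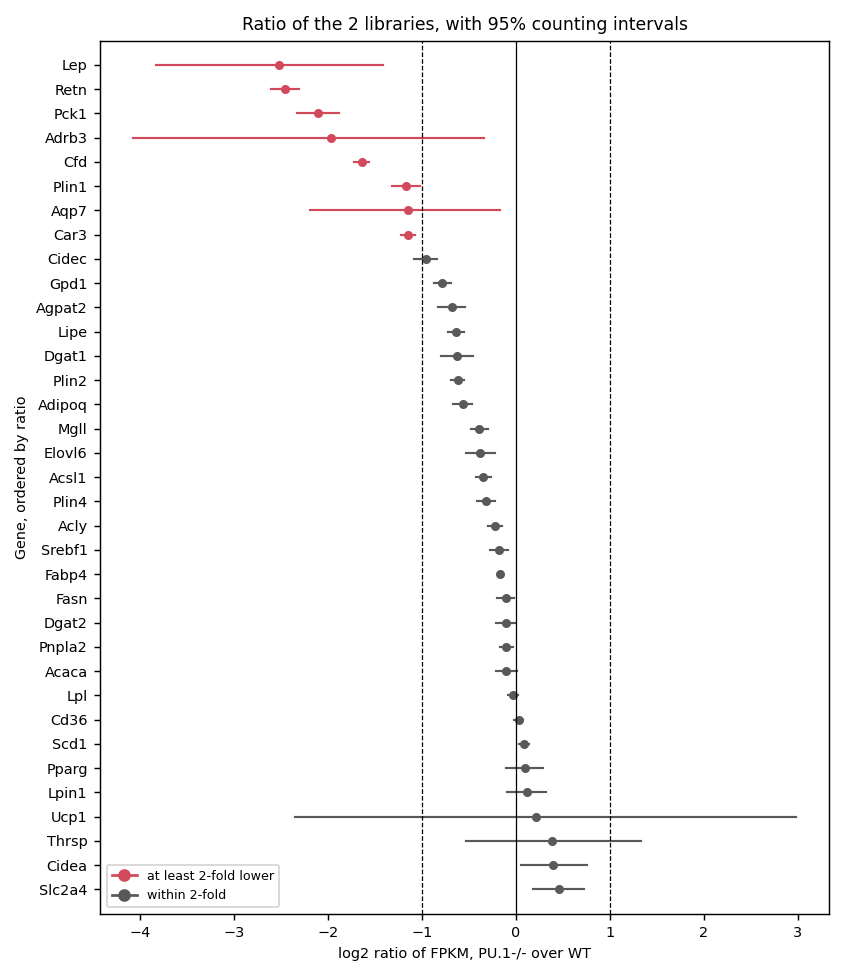
log2 ratio of FPKM, PU.1-/- over WT, for each of the 35 genes in order, with 95% counting intervals as bars and dashed lines at 2-fold. The 8 genes at least 2-fold lower are in red, with wide bars for Lep, Adrb3 and Aqp7, which rest on few reads, and the widest bar belongs to Ucp1.

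Other genes of the same pathways, in 5 lists with 103 genes in all, were mostly within 2-fold. Of the 103 genes, 3 were lower and 1 was higher by the 2-fold rule, with a median log2 ratio of -0.08. Of all listed genes 4.34% were lower and 2.32% higher, so that few calls are to be looked for in any of these lists. Among 25 other adipocyte and adipogenesis genes the median was 0.02. Adig, which encodes adipogenin, a small protein of fat cells, was lower at 27.4 and 8.25 FPKM (-1.73, interval -2.21 to -1.30). Pdzrn4 was the only higher one, at 0.294 and 0.630 FPKM, and it falls outside the rule for named genes. By the mean of both libraries the most abundant of these genes were Fabp5, the fatty acid carrier of keratinocytes (3611 and 3928 FPKM), and the apolipoprotein Apoc1 (164 and 206 FPKM), both within 2-fold.
Of 16 other droplet and lipolysis genes 2 were lower, with a median of -0.11. G0s2, the inhibitor of ATGL, which neutrophils also express, was at 65.2 and 27.3 FPKM (-1.26, interval -1.47 to -1.05). Hsd17b13, a droplet protein of liver, was at 0.202 and 0.0585 FPKM, about 4 reads and 1 read. Abhd5, the activator of ATGL, was at 65.5 and 62.6 FPKM.
None of 25 other fatty acid and triglyceride synthesis genes, 19 cholesterol synthesis genes and 18 fatty acid oxidation genes was counted in either direction. Their medians were -0.17, -0.18 and -0.03. By the same mean the most abundant of them were Elovl1 (150 and 124 FPKM) and Slc25a1 (46.6 and 35.1 FPKM) for synthesis, Fdps (75.5 and 66.0 FPKM) and Hmgcs1 (69.9 and 66.1 FPKM) for cholesterol, and Acadl (113 and 134 FPKM) and Etfb (127 and 108 FPKM) for oxidation. All 6 were within 2-fold.

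Markers of the other cells that use some of the 35 genes were not alike. All 10 macrophage markers were lower, with a summed level of 821 FPKM in WT against 11.7 FPKM in PU.1-/-, and 5 of them, among them Tyrobp, C1qa, C1qb and C1qc (80.6 to 196 FPKM in WT), are listed at 0 in PU.1-/-. Cd36, Lpl and Fabp4, which macrophages also express, were within 2-fold in the same libraries, at log2 ratios of 0.03, -0.03 and -0.17. Plin2 (-0.62, interval -0.69 to -0.54) and Acsl1 (-0.34, interval -0.42 to -0.26), which are not confined to fat either, were also within 2-fold. Their intervals lay wholly below 0. None of the 10 endothelial markers was counted, with a median log2 ratio of 0.11 and sums of 244 and 265 FPKM, and Pecam1 was at 65.3 and 78.7 FPKM and Cdh5 at 33.8 and 41.8 FPKM. The skeletal muscle markers summed to 6416 and 11124 FPKM, with a median of 0.67, and 2 of 10 were higher, Myh3 (17.8 and 36.5 FPKM) and Myh8 (294 and 591 FPKM). Acta1 (3224 and 5955 FPKM) and Tnnc2 (1179 and 1844 FPKM) were the most abundant of them. Slc2a4, which muscle also uses, had a ratio above 0, and Car3, which muscle also uses, a ratio below it.
Sebaceous gland markers had a median log2 ratio of -0.32, close to that of the 35 genes, and their sums were 561 and 493 FPKM. None of the 12 was counted by the 2-fold rule, and their log2 ratios reached from -0.93 to 0.40. The counting interval lay wholly below 0 for 7 of the 12 and wholly above 0 for 1. The most abundant of the 12 were Krt79 at 248 and 237 FPKM and Mgst1 at 243 and 201 FPKM. Brown fat markers had a median of 0.25, with sums of 123 and 167 FPKM. Of these 12 markers 1 was higher, Zic1, at 3.28 and 8.02 FPKM. The most abundant were Cox8b (65.1 and 99.99 FPKM) and Cox7a1 (18.9 and 23.1 FPKM), which muscle also expresses, while Prdm16 was at 0.376 and 0.320 FPKM. The brown fat list holds Ucp1 and Cidea of the 35 genes, and the sebaceous gland list holds Cidea. Keratinocyte markers had a median of 0.20, with Krt10 at 2291 and 2602 FPKM, and dermal fibroblasts and progenitors of adipocytes a median of 0.24, with Col1a2 at 373 and 406 FPKM. None of the 20 was counted. The part of these cell types in the differences of the 35 genes was not tested. A hand-picked set of 8 of the 35 genes also known from macrophages, endothelium or muscle was Plin2, Fabp4, Lpl, Cd36, Slc2a4, Car3, Pparg and Acsl1. The 8 are not a full list of such genes, and others of the 35 may be expressed in these cells too. Without these 8, the median of the remaining 27 genes was -0.39, and 7 of the 27 were lower, beside 4.34% of all listed genes. The 27 still hold genes used outside fat, such as Scd1 and Cidea.

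**Figure D4:**
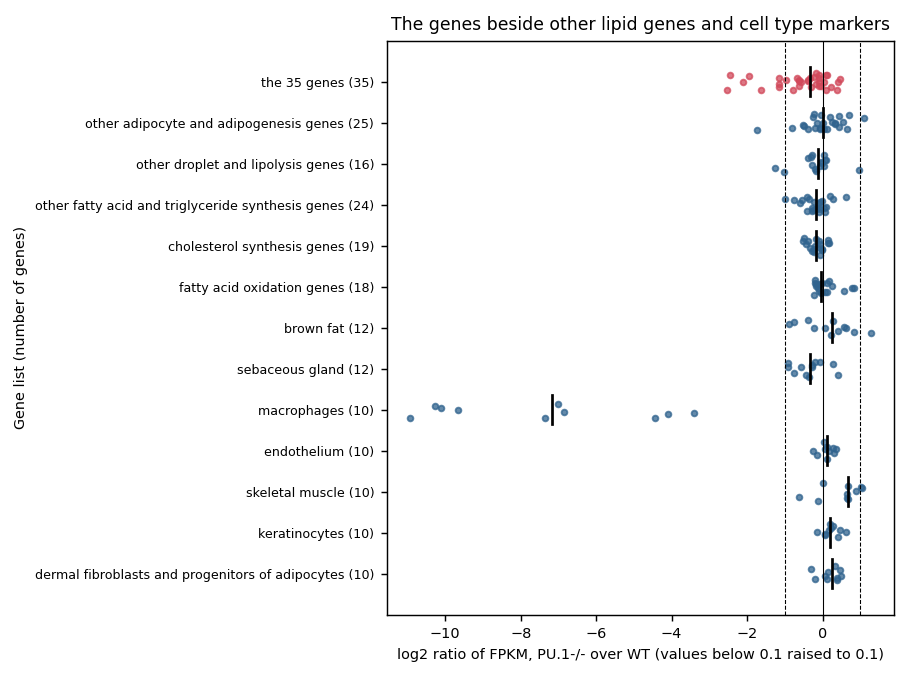
log2 ratio of FPKM, PU.1-/- over WT, of each gene (points) in the 35 genes (red) and in the lists of other lipid genes and cell type markers (blue), with black bars at the medians and dashed lines at 2-fold. The 35 genes reach -2.52 on the left, all 10 macrophage markers lie further left (5 of them at the 0.1 FPKM floor in PU.1-/-), skeletal muscle markers have a median of 0.67, and 1 gene that reached 0.1 FPKM in neither library is not drawn.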

How the data were processed

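Stranded mRNA libraries of 1 WT and 1 PU.1-/- skin wound sample, read as single ends of 75 bases, were analysed from the deposited FPKM values. The authors called bases with CASAVA 1.8.2, mapped reads to mm10 and calculated FPKM with Cuffnorm 2.2.1. The submitters' processing notes list TopHat2 2.1.1, Bowtie2 2.2.8, SAMtools 0.1.18 and Cuffdiff 2.2.1. The gene annotation and whether counting used strand were not found in the sources, so reads of the 14 genes that overlap another RefSeq gene, Adrb3 and Car3 among the lower ones, may be shared.

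The 35 genes, their 8 roles, the 5 pathway lists and the 7 marker lists were chosen with earlier results of these data known. Named genes are all 35 and Spi1 and, of each other list, up to 4 in each direction past 2-fold that reach 1 FPKM and the 2 most abundant. Xist, Ddx3y, Hsd17b13, Pdzrn4, Prdm16, Retnla, Retnlg and the neighbours of Cfd, Retn and others of the 35 were named after their values were seen. The C/EBP and PU box letters were also added then.

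Low genes move in whole-read steps. Equal read numbers gave a WT over PU.1-/- ratio of 1.15 (458 genes under 2 FPKM, within 0.001), and FPKM times transcript length less 200 nt gave the depth, from 105 genes with 1 transcript. The longest RefSeq-linked GENCODE transcript was used (21696 genes of at least 300 nt, 89.1%), and a read number is too large where the authors used a shorter one. Among 2416 genes with 1 transcript and under 20 estimated reads, 66.5% of WT estimates fell within 0.1 of a whole number. The functions were tested on simulated data. Alternatives of floor, pseudocount, filter, scaling and fold threshold were tried. Python 3.11.15, numpy 2.4.6, pandas 2.3.3, scipy 1.17.1 and matplotlib 3.10.9 were used.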

Additional observations from a re-analysis of the deposited data

How the results depend on the processing

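No paired analysis was possible because each genotype has 1 library. The number of the 35 genes counted as lower was 8 with a floor of 0.01 FPKM and under both rescalings. It was 5 with a floor of 1 FPKM, with a pseudocount of 1 FPKM, with only genes of at least 1 FPKM, with only genes of at least 5 FPKM and at a fold threshold of 3, and 14 at a fold threshold of 1.5. With the floor or the pseudocount of 1 FPKM the calls of Lep, Aqp7 and Adrb3 were lost, and with the filters those genes were left out. At 1.5-fold, 7.67% of all genes were lower, and at 3-fold 2.8%. No gene of the 35 was higher under any of these settings. The median log2 ratio of the 35 genes was -0.18 with the floor of 1 FPKM, where genes under it have a ratio of 0 by construction. For the other pathway genes, the number lower was 7 at 1.5-fold and 1 at 3-fold, and the number higher was 2 with a floor of 0.01 FPKM, 2 with libraries scaled to the same FPKM sum, 7 at 1.5-fold and 0 with a floor of 1 FPKM, a pseudocount of 1 FPKM, either filter or a threshold of 3. Rescaling to the same FPKM sum shifted log2 ratios by 0.05 where both values are above the floor of 0.1 FPKM (that of Adrb3, with its PU.1-/- value under the floor, stayed at -1.96), which took Fabp4 to -0.12, outside its counting interval, and rescaling to a common median shifted them by less. Depth limits Lep, Aqp7, Adrb3, Thrsp and Ucp1, each with under 100 estimated reads in all.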

Other observations

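Regulators of fat cell formation outside the 35 genes, picked after their values were seen, were within 2-fold. So were 22724 of all 24346 listed genes. Of the 25 other adipocyte and adipogenesis genes they were picked from, 12 had a ratio below 0 and 13 above it. Among those not picked were Ebf2 (-0.52, interval -1.13 to 0.11) and Zfp423 (-0.39, interval -0.78 to -0.003). Cebpa, the partner of PPARγ in mature adipocytes, was at 102 FPKM in WT against 86.5 FPKM in PU.1-/- (log2 ratio -0.23, interval -0.30 to -0.16). Cebpb, which acts early in adipogenesis, was at 122 and 124 FPKM, with an interval of -0.06 to 0.10 that held 0. Cebpd, its early partner, was at 60.9 and 89.2 FPKM (0.55, interval 0.48 to 0.62), and Klf15, a glucocorticoid-responsive factor of fat and muscle, at 5.36 and 8.67 FPKM (0.69, interval 0.42 to 0.98). Dlk1, the inhibitor of adipogenesis that preadipocytes express, was at 90.5 and 114 FPKM (0.34, interval 0.29 to 0.39). Fitm1, a droplet protein of muscle, was just short of 2-fold at 10.9 and 21.4 FPKM (0.97, interval 0.64 to 1.29), in libraries whose summed skeletal muscle markers were 6416 and 11124 FPKM. The part of muscle in the value of Fitm1 was not tested.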
